A study of Homo sapiens with 12 samples.

Results

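Cytokine and growth factor receptor signaling in erythroid cells was followed through EPOR, KIT, CSF2RB, FLT3, IGF1R, INSR, JAK2, RHEX, CISH and SOCS2. These 10 genes of the 60483 in the count table were chosen by function: receptors for erythropoietin, stem cell factor, insulin and other cytokines, with genes that act directly behind those receptors. The choice was made with earlier results of these data known. All 10 were among the 17175 genes with enough counts to be tested. RNA was sequenced from HUDEP-2, a human erythroid progenitor line immortalized from cord blood, with 3 libraries in each of 4 groups. Control cells (sgSCR, genotype given as WT) carried a scrambled guide RNA, and knockout cells (MBD2KO, genotype MBD2-/-) had lost MBD2, which binds methylated DNA and belongs to the NuRD chromatin complex. Each genotype was sampled before differentiation, labelled as early basophilic erythroblasts, and after it, labelled as late basophilic erythroblasts. Erythropoietin (EPO) at 3 IU/mL and doxycycline (DOX) were in the medium of all groups. Expansion medium added stem cell factor (SCF) at 50 ng/mL and dexamethasone (DEX), and differentiation medium replaced these with insulin at 10 ug/mL, heparin, holo-transferrin and 5% human AB serum. A stage difference is therefore also a difference of medium, and stage and medium cannot be told apart here. The labels give 5 days of differentiation in one place and 3 in another, and do not say whether the knockout cells were 1 clone or whether the replicates were separate cultures. The p-values thus measure the spread between these libraries, which may be technical.

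Erythroid progenitors depend on a handover between growth factor receptors. KIT, the receptor tyrosine kinase for stem cell factor, drives expansion of early erythroid cells and declines as they mature. The erythropoietin receptor EPOR has no kinase of its own. It works through JAK2, which phosphorylates STAT5, and STAT5 in turn induces survival genes together with CISH and SOCS2, which damp the signal. Insulin and insulin-like growth factor signal through INSR and IGF1R to the PI3K and RAS pathways, and both hormones support erythroid cultures. CSF2RB is the shared signaling chain of the receptors for IL-3, IL-5 and GM-CSF, and FLT3 is a receptor of early progenitors.

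Total counts ran from 7667997 to 14047498 per library. MBD2 mRNA ranged from 58.2 to 78.7 CPM over the control libraries of both stages and from 14.6 to 24.5 CPM over the knockout libraries. CPM, the unit of levels used here, is a count scaled by library size and composition. All 10 erythroblast markers examined, among them KLF1, ALAS2 and GATA1, passed the count filter in these cells. Their summed level ran from 7011 to 8288 CPM in control libraries before differentiation, 7254 to 9379 CPM in knockout libraries before, 8177 to 9096 CPM in control libraries after and 16047 to 18502 CPM in knockout libraries after. TFRC alone, the transferrin receptor gene, held most of this sum, with group means of 5997, 6605, 6817 and 11768 CPM in the same order. The lymphoid marker CD3E and the platelet gene PPBP were listed at 0 in every library, the only ones in their lists. None of the 7 lymphoid markers passed the count filter, and of 8 megakaryocyte markers 1 did, ITGA2B. It stood at 27.4 CPM in control and 43.1 CPM in knockout cells before differentiation, and at 11.2 and 10.2 CPM after it.

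The 10 genes were first compared by level per length, as FPKM (CPM per kilobase of exon). KIT was the highest of the 10 in every group, at 133 FPKM in control cells before differentiation and 66.5 FPKM in knockout cells after it. Below KIT, the order of mean levels in control cells before differentiation ran from RHEX (36.5 FPKM) over SOCS2 (23.1), CSF2RB (14.2), JAK2 (13.4), EPOR (6.71), INSR (4.65), IGF1R (3.12) and CISH (2.50) to FLT3 (1.13). In knockout cells after differentiation JAK2 stood next to KIT at 49.6 FPKM, followed by EPOR at 26.3, CISH at 11.6, INSR at 11.3 and SOCS2 at 11.0 FPKM. IGF1R was then at 3.80, CSF2RB at 1.74, RHEX at 0.325 and FLT3 at 0.148 FPKM. Within single libraries the EPOR to KIT ratio of FPKM was 0.0503 ± 0.00454 in control cells before differentiation and 0.125 ± 0.00873 after it (SD, n = 3). In knockout cells it was 0.0808 ± 0.0233 before and 0.395 ± 0.0438 after.

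**Figure D1:**
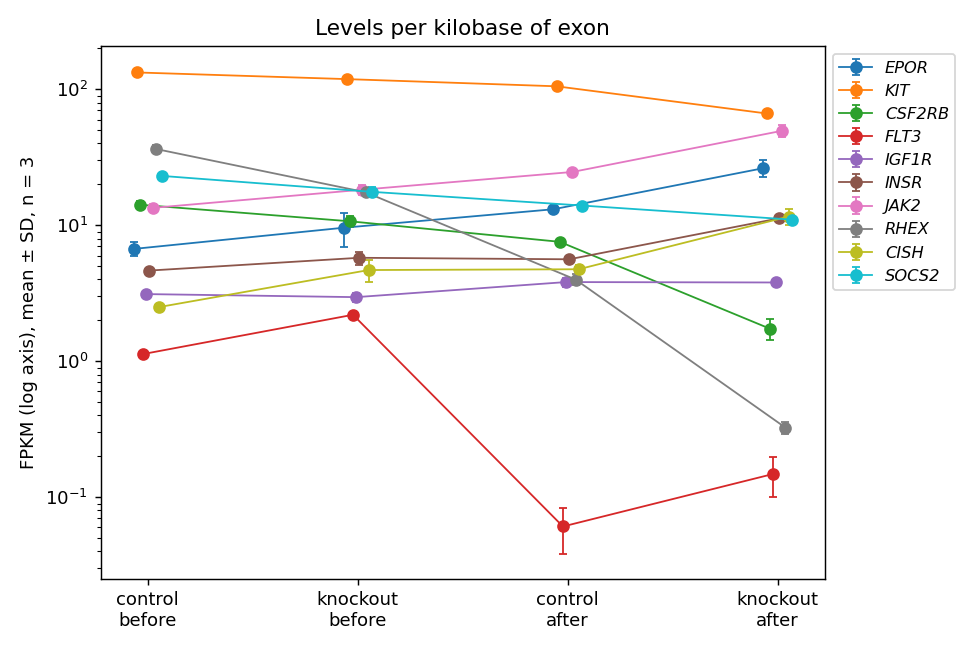
Mean level per exon length (FPKM, log axis) of the 10 genes in the 4 groups, shown as means with SD bars over 3 libraries, 1 line per gene. KIT is the highest gene in each group, and RHEX goes from 36.5 FPKM in control cells before differentiation to 0.325 FPKM in knockout cells after it.

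Before differentiation, knockout cells held more EPOR, FLT3, INSR, JAK2 and CISH mRNA than control cells and less CSF2RB, RHEX and SOCS2. A gene was called when its Benjamini-Hochberg adjusted p, over all genes tested with the quasi-likelihood F-test of edgeR, lay under 0.05. Of the 10 genes, 5 were called higher (9.07% of all genes tested were) and 3 lower (8.15% of all were), so 8 of 10 were called where 17.2% of all genes were. Because the 10 were chosen with earlier results of these data known, the shares given here and below cannot test for an excess of calls. After differentiation 4 were called higher (16.8% of all genes) and 4 lower (16.3%), 8 of 10 against 33.1% of all. The median log2 change of the 10 was 0.12 before and 0.49 after, beside -0.00 and -0.01 over all genes tested. From before to after differentiation, 5 of the 10 rose in control cells (21.5% of all genes did) and 5 fell (22.3%), beside 43.8% called either way. In knockout cells the same split of 5 higher (28% of all) and 5 lower (27.7%) was found, beside 55.7% called either way. The median change of the 10 with stage was -0.03 in control and -0.16 in knockout cells, beside 0.01 and 0.03 over all genes. Every group enters a knockout comparison and a stage comparison, so these comparisons share libraries. In bulk RNA, fewer cells of a type and less RNA per cell cannot be told apart.

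Scaling moved the balance of all calls. With library sizes alone in place of composition scaling, 27.6% of the genes called in knockout against control after differentiation were higher, against 50.7% with it, and 35.1% against 50.3% for the stage change in knockout cells. The median change of all genes then moved to -0.17 and -0.16. Of the calls on the 10 genes in these 2 comparisons, 1 was lost under that scaling, the rise of IGF1R with stage in knockout cells (log2 0.17, adjusted p = 0.0874).

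**Figure D2:**
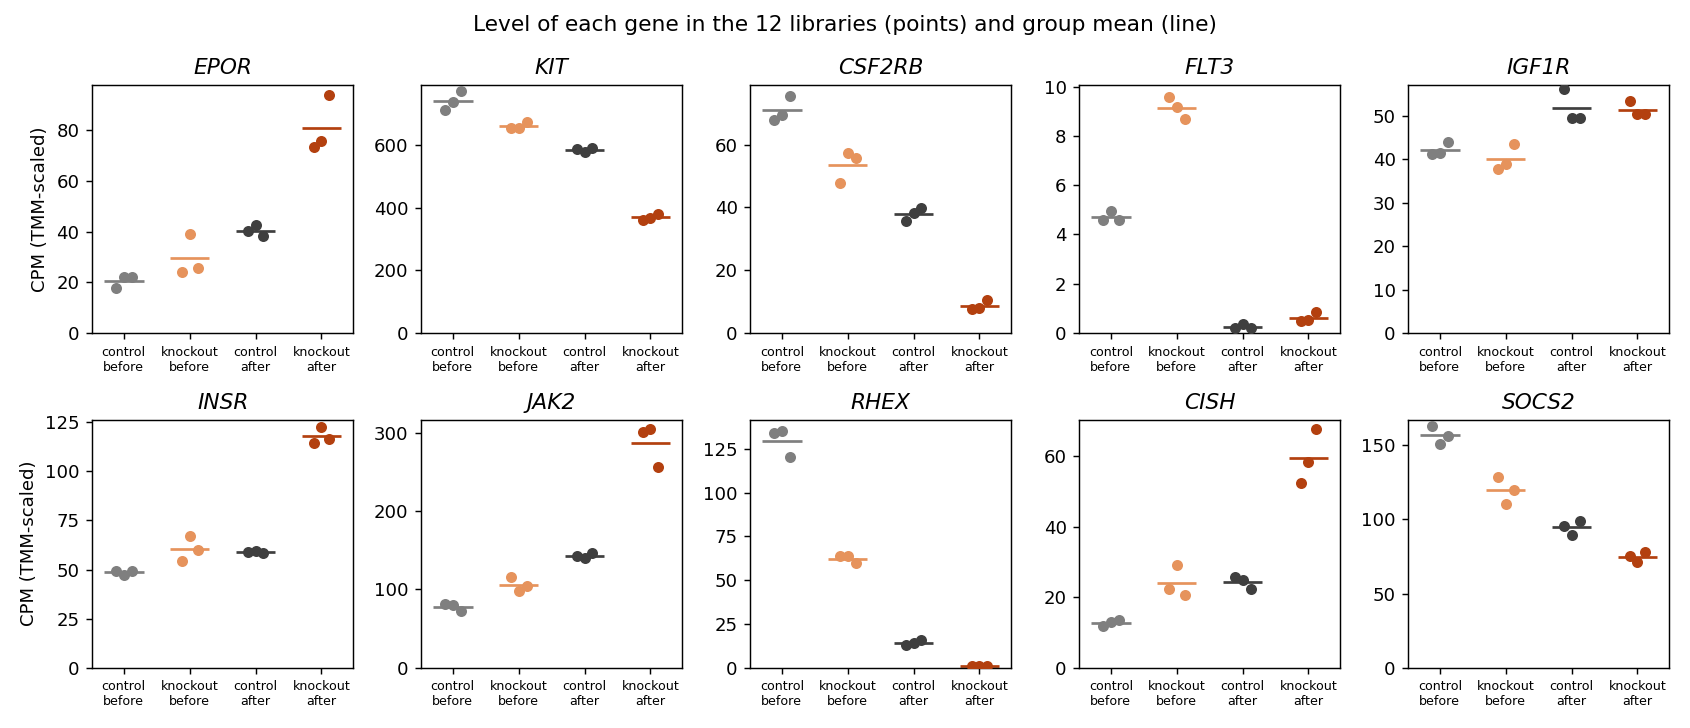
Level of each of the 10 genes in every library (CPM, linear axis from 0 with its own range in each panel), with 1 point per library and a line at the group mean, for control and knockout cells before and after differentiation. EPOR, JAK2, INSR and CISH are highest in knockout cells after differentiation, and KIT, CSF2RB, RHEX and SOCS2 are lowest there.

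EPOR mRNA was lowest in control cells before differentiation and highest in knockout cells after it. The control libraries held 17.8, 21.9 and 22.2 CPM before differentiation and 40.4, 42.8 and 38.1 CPM after. The knockout libraries held 24.1, 39.1 and 25.5 CPM before and 73.5, 75.6 and 94.1 CPM after. All knockout libraries lay above all control libraries of the same stage, while 1 knockout library before differentiation, replicate 2, reached into the range of the control libraries after it. EPOR rose 1.96-fold with differentiation in control cells (log2 0.97 ± 0.15 SE, adjusted p = 7.39e-05) and 2.75-fold in knockout cells (1.46 ± 0.15, adjusted p = 2.59e-07). After differentiation it was 2.00-fold higher in knockout than in control cells (1.00 ± 0.14, adjusted p = 3.65e-05). Before differentiation the difference was 1.42-fold (0.51 ± 0.16, adjusted p = 0.0331), and without knockout replicate 2 it was 0.26 on the log2 scale with an adjusted p of 0.199. The call before differentiation was also lost without control replicate 1 (0.41, adjusted p = 0.142) or control replicate 2 (0.55, adjusted p = 0.0589). The difference between both knockout effects was 0.49 ± 0.21 (adjusted p = 0.147), and 0.74 (adjusted p = 0.00431) without knockout replicate 2 before differentiation. Erythroblast markers moved with EPOR: 6 of 10 were called higher in knockout cells before and 9 of 10 after differentiation, with none lower, where 9.07% and 16.8% of all genes were higher. HBB was 1 of the 9 called after differentiation (adjusted p = 0.0243), although its genotypes overlapped. Its lowest knockout library of that stage, at 282 CPM, lay below its highest control library, at 371 CPM. Globin RNA had been depleted, and HBB spread widely within a group, with 136 CPM as minimum and 682 CPM as maximum of control cells before differentiation. HBA1, also a globin gene, was not called after differentiation (adjusted p = 0.0538). The part of the erythroblast markers in the EPOR result was not tested.

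The EPOR gene (ENSG00000187266.12) lies on chromosome 19 from 11377205 to 11384342 on the minus strand in hg38. Promoter windows of 250 bases before the RefSeq start (build GRCh38.p14) had an entry for 8 of the 10 genes, all but CSF2RB and SOCS2. They were searched for the GATA motif AGATAA on both strands, since GATA1 is the factor long known to act at the EPOR promoter, and for the STAT motif TTCNNNGAA, which reads alike on both strands. The entry of EPOR held 1 GATA match, 78 to 73 bases before the start, on the strand opposite to the gene. All 250 bases of that window lie in exons of the annotation used for counting, as do 174 of the 250 for CISH. At least 1 GATA match was found in 9.17% of 35116 promoter entries. The 30 bases around the match, chr19:11384375-11384404 on the minus strand, are shown with the matched letters in capitals.
EPOR: cccgccaggcacTTATCTctacccaggctg

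JAK2, the kinase bound to EPOR, moved in the same direction as EPOR in each comparison. It lies on chromosome 9 from 4985033 to 5128183 on the plus strand (ENSG00000096968.11). Control libraries held 81.1, 80.6 and 72.0 CPM before and 143, 140 and 147 CPM after differentiation. Knockout libraries held 115, 97.7 and 105 CPM before and 301, 305 and 257 CPM after. The 4 groups did not overlap, and their means rose in the order control before, knockout before, control after and knockout after. JAK2 rose 1.84-fold with differentiation in control cells (log2 0.88 ± 0.08, adjusted p = 1.73e-07) and 2.71-fold in knockout cells (1.44 ± 0.08, adjusted p = 1.87e-10). The knockout effect was 0.44 ± 0.08 before (adjusted p = 0.000791) and 1.01 ± 0.08 after (adjusted p = 3.12e-08). The difference of 0.56 ± 0.11 between these effects passed the test (adjusted p = 0.00299).

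RHEX encodes a membrane protein reported to bind EPOR and to carry its signal in erythroid progenitors. It showed the widest range of the 10 genes, with a 112-fold ratio between the highest and the lowest group mean. Control libraries held 134, 135 and 120 CPM before and 13.03, 14.02 and 15.6 CPM after differentiation. Knockout libraries held 63.7, 63.6 and 59.6 CPM before and 1.06, 1.29 and 1.12 CPM after, the last from 8 to 12 counts a library. No groups overlapped. RHEX fell 9.15-fold with differentiation in control cells (log2 -3.19 ± 0.08, adjusted p = 1.16e-13) and 53.1-fold in knockout cells (-5.73 ± 0.13, adjusted p = 6.83e-15). It was 2.08-fold lower in knockout cells before differentiation (-1.06 ± 0.07, adjusted p = 1.43e-08) and 12.1-fold lower after it (-3.60 ± 0.16, adjusted p = 4.11e-11). The knockout effects differed by -2.54 ± 0.19 (adjusted p = 4.49e-07). EPOR and RHEX thus moved in opposite directions in each comparison.

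RHEX (ENSG00000263961.5) spans chromosome 1 from 206037231 to 206102459 on the plus strand in the annotation used for counting, and the RefSeq start lies inside that span. The window before the RefSeq start held 1 GATA match, 159 to 154 bases before it, again on the strand opposite to the gene. Whether the GATA match of EPOR or that of RHEX acts on the level of its gene was not tested. The part of the window outside annotated exons, chr1:206083345-206083562 on the plus strand, is shown with the match in capitals.
RHEX: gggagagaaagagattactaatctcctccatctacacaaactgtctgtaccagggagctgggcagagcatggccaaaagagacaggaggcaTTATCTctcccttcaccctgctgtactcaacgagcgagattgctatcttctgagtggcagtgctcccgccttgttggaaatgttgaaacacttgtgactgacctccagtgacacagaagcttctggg

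KIT, the receptor for the stem cell factor that the differentiation medium lacks, fell with differentiation and fell further in knockout cells. The gene lies on chromosome 4 from 54657918 to 54740715 on the plus strand (ENSG00000157404.14). Control libraries held 713, 737 and 772 CPM before and 589, 578 and 591 CPM after differentiation. Knockout libraries held 655, 655 and 675 CPM before and 359, 369 and 381 CPM after. The 4 groups did not overlap. KIT fell by 0.34 ± 0.06 on the log2 scale in control cells (adjusted p = 0.000181) and by 0.84 ± 0.06 in knockout cells (adjusted p = 3.71e-09). After differentiation it was 1.58-fold lower in knockout than in control cells (log2 -0.66 ± 0.06, adjusted p = 1.74e-07). Before differentiation the difference of -0.16 ± 0.06 did not pass (adjusted p = 0.0695), although DESeq2 called it (-0.16, adjusted p = 0.0165). The difference between the knockout effects was -0.50 ± 0.08 (adjusted p = 0.000767).

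CSF2RB was lower in knockout cells at both stages and fell with differentiation in both genotypes. It lies on chromosome 22 from 36913628 to 36940449 on the plus strand (ENSG00000100368.12). Control libraries held 67.7, 69.3 and 75.6 CPM before and 35.7, 38.1 and 39.7 CPM after differentiation. Knockout libraries held 47.6, 57.3 and 55.7 CPM before and 7.62, 8.07 and 10.4 CPM after, with no overlap between groups. The fall with differentiation was 1.87-fold in control cells (log2 -0.91 ± 0.09, adjusted p = 4.98e-07) and 6.20-fold in knockout cells (-2.63 ± 0.11, adjusted p = 1.11e-11). The knockout effect of -0.41 ± 0.09 before differentiation (adjusted p = 0.00371) and the 4.38-fold lower level after it differed by -1.73 ± 0.15 (adjusted p = 1.69e-06). The alpha chains that pair with CSF2RB were scarce: IL3RA was between 1.19 and 1.74 CPM in the group means, and CSF2RA held 13 counts over all libraries and was not tested. Both lie in a region shared by the X and Y chromosomes, where reads can match 2 copies, so their levels are uncertain.

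Mast cells also carry KIT, and mast cells and basophils carry CSF2RB, and markers of these cells moved alongside. Of 12 such markers, 8 passed the count filter. Their summed level, over all 12, ran from 410 to 439 CPM in control libraries before differentiation, 285 to 291 CPM in knockout libraries before, 219 to 227 CPM in control libraries after and 83.6 to 90.5 CPM in knockout libraries after. In knockout against control cells 4 were called lower and 1 higher before differentiation, and 6 lower and none higher after it, where 8.15% and 16.3% of all genes were lower. With differentiation 6 were called lower in control and 8 in knockout cells, with none higher, where 22.3% and 27.7% of all genes were lower. No marker of this list was at 0 in all libraries. However, HDC, CMA1, FCER1A and CLC did not pass the filter, at 0.547 CPM or less in the group means. ENPP3, the highest in control cells before differentiation at 185 CPM, was at 180 CPM in knockout cells of that stage, without a call (adjusted p = 0.793). MS4A2 went from 69.4 to 0.994 CPM and SIGLEC6 from 59.4 to 23.3 CPM between the same groups, and PRG2 was the 1 called higher. The part of these cells in the KIT and CSF2RB results was not tested.

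FLT3 was a low-level gene that was higher in knockout cells before differentiation and at 2 to 6 counts a library after it in both genotypes. It lies on chromosome 13 from 28003274 to 28100592 on the minus strand (ENSG00000122025.13). Before differentiation the control libraries held 4.60, 4.94 and 4.57 CPM and the knockout libraries 9.60, 9.16 and 8.69 CPM, without overlap. After it the control libraries held 0.188, 0.363 and 0.210 CPM, from 2 to 5 counts each, and the knockout libraries 0.469, 0.538 and 0.844 CPM, from 4 to 6 counts each. FLT3 was 1.94-fold higher in knockout cells before differentiation and fell 17.1-fold with differentiation in control cells (log2 -4.10 ± 0.28, adjusted p = 4.69e-09) and 14.9-fold in knockout cells (-3.90 ± 0.23, adjusted p = 4.99e-10). The difference between genotypes after differentiation, 1.15 ± 0.45, did not pass (adjusted p = 0.115) at this depth. Neutrophil and monocyte markers summed to 13.3 to 15.5 CPM over the control libraries before differentiation and 29.3 to 39.5 CPM over the knockout libraries. Of 12 listed, 6 were tested and 5 called higher, where 9.07% of all genes were. The other tested marker, SPI1, was not called (-0.06, adjusted p = 0.895). MPO, CTSG, S100A8, S100A9, CSF3R and CD14 did not pass the count filter, at 0.379 CPM or less in both group means before differentiation. Stem and progenitor markers summed to 2.44 to 3.62 CPM over the control libraries and 0.359 to 0.577 CPM over the knockout libraries of that stage. That gap came from 1 gene, ERG, at a mean of 2.24 CPM in control and 0.0299 CPM in knockout cells, while CD34 was at 0.0630 and 0.108 CPM. The part of these cells in the FLT3 result was not tested.

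INSR, the insulin receptor, was higher in knockout cells at both stages, whereas no difference of IGF1R, the receptor for insulin-like growth factor, between the genotypes passed the test. INSR (ENSG00000171105.12) lies on chromosome 19 from 7112255 to 7294034 on the minus strand. Control libraries held 49.3, 47.1 and 49.3 CPM of INSR before and 58.7, 59.4 and 58.4 CPM after differentiation. Knockout libraries held 54.1, 67.1 and 59.8 CPM before and 114, 122 and 116 CPM after. Knockout libraries lay above the control libraries of their stage, and those before differentiation overlapped the control libraries after it. INSR was 1.24-fold higher in knockout cells before differentiation (log2 0.31 ± 0.07, adjusted p = 0.00728) and 2.00-fold higher after it (1.00 ± 0.07, adjusted p = 1.37e-08), and these effects differed by 0.69 ± 0.10 (adjusted p = 0.000337). With differentiation INSR rose by 0.28 ± 0.07 in control cells (adjusted p = 0.00624) and by 0.97 ± 0.07 in knockout cells (adjusted p = 7.61e-09).

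IGF1R (ENSG00000140443.12) lies on chromosome 15 from 98648971 to 98964530 on the plus strand. Control libraries held 41.2, 41.4 and 44.0 CPM before and 56.2, 49.5 and 49.5 CPM after differentiation. Knockout libraries held 37.7, 38.9 and 43.5 CPM before and 53.3, 50.4 and 50.3 CPM after. Genotypes overlapped at both stages, while the stages did not overlap. The knockout effect was -0.08 ± 0.08 before (adjusted p = 0.582) and -0.01 ± 0.08 after differentiation (adjusted p = 0.943), neither past the threshold. IGF1R rose with differentiation by 0.29 ± 0.08 in control cells (adjusted p = 0.00518) and by 0.36 ± 0.08 in knockout cells (adjusted p = 0.000901), the latter call lost under library sizes alone as given above. The IGF1R to INSR ratio of FPKM was 0.672 ± 0.0231 in control and 0.517 ± 0.0605 in knockout cells before differentiation, and 0.680 ± 0.0524 and 0.338 ± 0.0214 after it (SD, n = 3).

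CISH and SOCS2, feedback inhibitors that STAT5 induces, moved in opposite directions. CISH (ENSG00000114737.14) lies on chromosome 3 from 50606490 to 50611831 on the minus strand. Control libraries held 11.9, 13.1 and 13.4 CPM of CISH before and 25.8, 24.9 and 22.2 CPM after differentiation. Knockout libraries held 22.2, 29.01 and 20.7 CPM before and 52.3, 58.2 and 67.5 CPM after. Knockout libraries lay above all control libraries of their stage, and those before differentiation overlapped the control libraries after it, the same order as for EPOR. CISH was 1.87-fold higher in knockout cells before differentiation (log2 0.90 ± 0.13, adjusted p = 9.99e-05) and 2.43-fold higher after it (1.28 ± 0.12, adjusted p = 2.77e-07). With differentiation it rose 1.90-fold in control cells (0.93 ± 0.13, adjusted p = 2.46e-05) and 2.47-fold in knockout cells (1.31 ± 0.12, adjusted p = 8.22e-08). The knockout effects differed by 0.38 ± 0.18 (adjusted p = 0.183), or by 0.54 (adjusted p = 0.0282) without knockout replicate 2 before differentiation. Of the exon bases of CISH, 4.26% are shared with MAPKAPK3 on the opposite strand, and the counting used no strand option, so reads there cannot be assigned.

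The promoter entry of CISH held 4 STAT matches, at 241 to 233, 230 to 222, 129 to 121 and 112 to 104 bases before the start. At least 1 such match was found in 6.57% of the 35116 entries and 4 or more in 0.0142%, which was 5 entries. They are shown because CISH is a textbook STAT5 target, and their part in its levels here was not tested. The first line is chr3:50611991-50612020 and the next chr3:50611876-50611905, both on the minus strand, with matches in capitals.
CISH, upstream pair: ccgttTTCCTGGAAagTTCTTGGAAatctg
CISH, downstream pair: ggTTCTAGGAAgacgctgcTTCCGGGAAgg
The entries of EPOR and RHEX held no STAT match, the entry of CISH held no GATA match, and those of KIT, FLT3, IGF1R, INSR and JAK2 held neither.

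**Figure D3:**
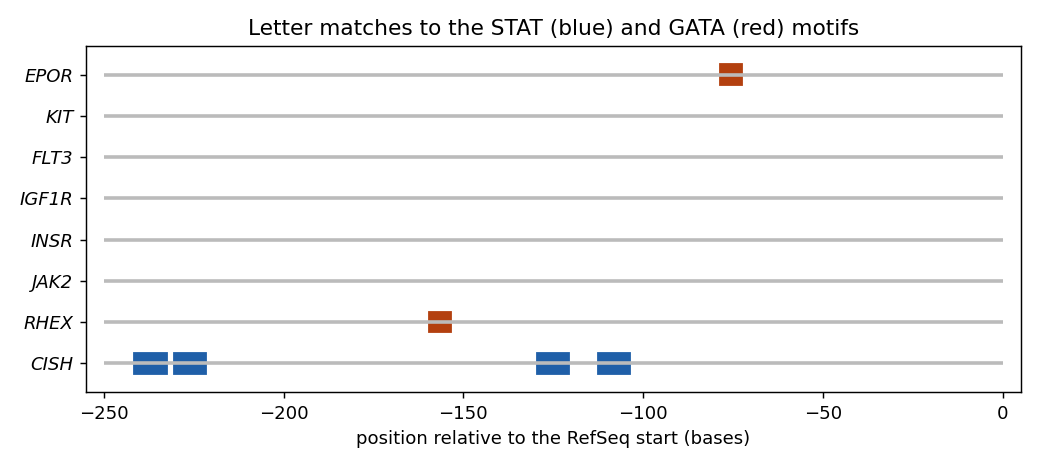
Positions of letter matches to the STAT and GATA motifs in the 250 bases before the RefSeq start (horizontal axis, bases relative to the start) for the 8 genes with a promoter entry. The CISH window holds 4 STAT matches, and the EPOR and RHEX windows hold 1 GATA match each.

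SOCS2 (ENSG00000120833.12) lies on chromosome 12 from 93569814 to 93583487 on the plus strand. Control libraries held 162, 151 and 156 CPM before and 95.5, 89.7 and 99.1 CPM after differentiation. Knockout libraries held 129, 110 and 120 CPM before and 75.0, 71.0 and 77.9 CPM after, with no overlap between groups. SOCS2 was lower in knockout cells at both stages, with log2 changes of -0.39 ± 0.07 (adjusted p = 0.000619) and -0.34 ± 0.07 (adjusted p = 0.00123) and a difference between them of 0.04 ± 0.10 (adjusted p = 0.833). With differentiation it fell by 0.72 ± 0.07 in control cells (adjusted p = 2.74e-07) and by 0.68 ± 0.07 in knockout cells (adjusted p = 4.12e-07). The CISH to SOCS2 ratio of FPKM went from 0.109 ± 0.00994 in control cells before differentiation to 1.05 ± 0.116 in knockout cells after it (SD, n = 3). Of the SOCS2 exon bases, 4.09% are shared with the antisense gene SOCS2-AS1, and reads there cannot be told apart.

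The knockout effect itself depended on stage for 5 of the 10 genes. It was more positive after differentiation for INSR and JAK2 (6.28% of all genes tested were called so) and more negative for KIT, CSF2RB and RHEX (6.68% were), beside 13% of all genes called either way. For EPOR, FLT3, IGF1R, CISH and SOCS2 the difference did not pass the test. With library sizes alone, 23.1% of all genes called in this contrast were more positive, against 48.5% with composition scaling. The median of the 10 genes was 0.13, beside -0.01 over all genes.

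**Figure D4:**
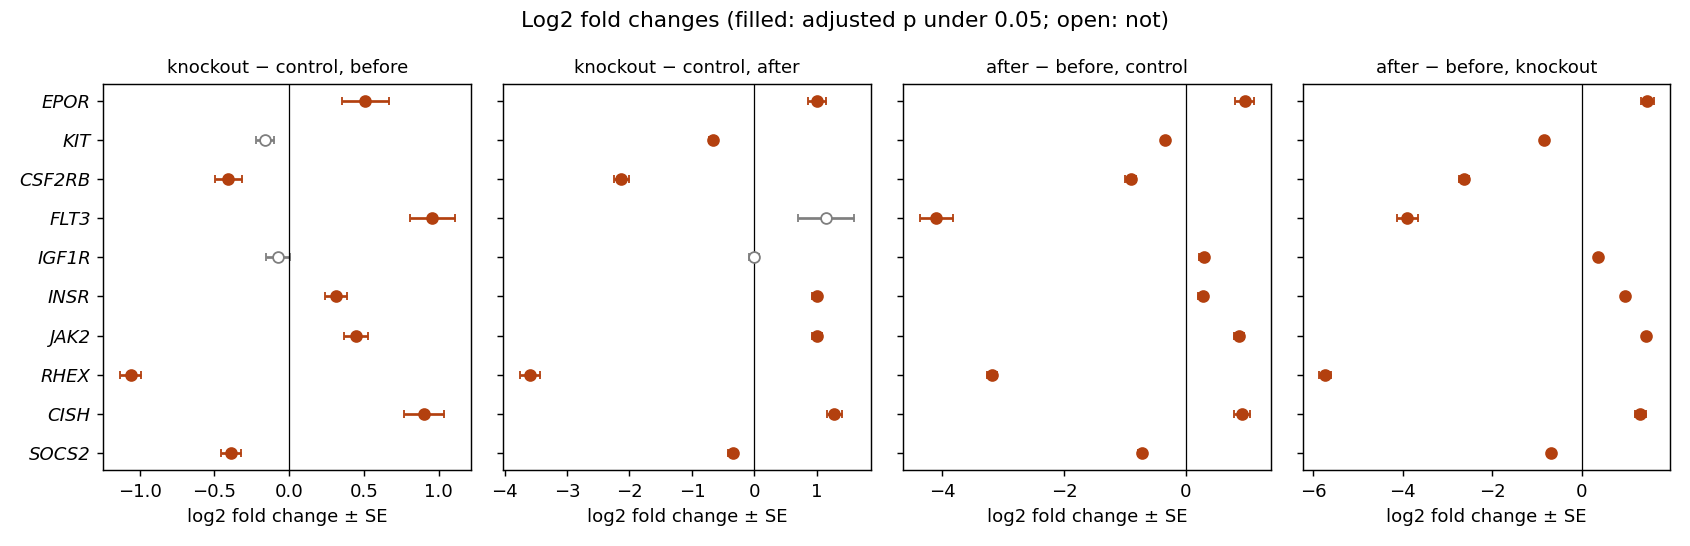
Log2 changes with standard errors (horizontal axis, with its own range in each panel) of the 10 genes in the 2 knockout and 2 stage comparisons. Filled points passed the test and open points did not. RHEX and CSF2RB show the lowest knockout effects after differentiation (-3.60 and -2.13), and CISH (1.28), JAK2 (1.01), INSR (1.00) and EPOR (1.00) are the genes called higher there.

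The genes whose pattern over the 12 libraries came closest to EPOR and to KIT were sought among 9602 protein-coding genes. Likeness was the root mean square difference of centred log2 CPM. For EPOR these were PIGQ at 0.09, CLDN15 at 0.12 and NARF at 0.13 log2 units. PIGQ went from 34.2 CPM in control cells before differentiation to 135 CPM in knockout cells after it. For KIT they were SEPTIN11 at 0.05, YEATS2 at 0.07 and DIP2B at 0.07, and SEPTIN11 went from 215 CPM to 108 CPM between the same groups.

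The wider pathway was described with 8 lists of genes that exclude the 10. As background to their counts with knockout, 9.07% of all genes tested were higher and 8.15% lower before differentiation, and 16.8% higher and 16.3% lower after it. Among cytokine receptors, 17 of 30 passed the count filter. In knockout against control cells 3 were called higher and 6 lower before differentiation, and 3 higher and 9 lower after it, with median log2 changes of -0.12 and -0.43. IL6ST, the shared signaling chain of the IL-6 family, was at 46.8 ± 2.2 CPM in control cells and 65.0 ± 2.4 CPM in knockout cells before differentiation, and at 44.6 ± 0.49 and 128 ± 7.5 CPM after it. It rose with knockout by 0.47 ± 0.07 before (adjusted p = 6.46e-05) and 1.53 ± 0.07 after (adjusted p = 3.40e-11). IFNGR2, a chain of the interferon gamma receptor, fell with knockout by 0.67 ± 0.09 (adjusted p = 7.63e-05) and 1.36 ± 0.11 (adjusted p = 5.98e-08). TFR2, a transferrin receptor that associates with EPOR, was at 116 CPM in control and 108 CPM in knockout cells before differentiation and at 145 and 160 CPM after it, and rose with stage in control cells by 0.33 ± 0.09 (adjusted p = 0.00897).

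Of 31 other receptor tyrosine kinases and related receptors, 14 were tested, with 6 higher and none lower in knockout cells before differentiation and 3 higher and 4 lower after it. Their medians were 0.36 and -0.14. IGF2R, the mannose 6-phosphate receptor that clears IGF2, is in that list without being a kinase. It rose with knockout by 0.38 ± 0.07 (adjusted p = 0.00119) and 0.77 ± 0.07 (adjusted p = 3.14e-07). Among the other Janus kinases and STATs, 8 of 10 were tested, with none higher and 2 lower before, and none higher and 3 lower after, and medians of -0.11 and -0.18. JAK1 was lower in knockout cells by 0.26 on the log2 scale at each stage (adjusted p = 0.0153 and 0.00897), the call before differentiation being lost without knockout replicate 2 (-0.20, adjusted p = 0.0632) and with only the groups compared (-0.26, adjusted p = 0.0590). TYK2 stood at 121, 132, 123 and 136 CPM in control before, knockout before, control after and knockout after. STAT5A, the main EPOR effector together with STAT5B, was at 175 CPM in control and 161 CPM in knockout cells before differentiation, and at 163 and 109 CPM after it. It fell with knockout after differentiation by 0.59 ± 0.08 (adjusted p = 2.02e-05), whereas STAT5B stood at 106 CPM in control and 119 CPM in knockout cells. No other Janus kinase or STAT tested was called higher in knockout cells at either stage, whereas JAK2 was at both.

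Of 17 known targets of EPO and STAT5, 16 were tested, with 5 higher and none lower in knockout cells before differentiation, and 8 higher and none lower after it. The share of all genes called higher was 9.07% before and 16.8% after. With stage 11 rose and 2 fell in control cells, and 13 rose and none fell in knockout cells, where 21.5% and 28% of all genes rose. Their median log2 change was 0.26 and 0.33 with knockout, beside -0.00 and -0.01 over all genes, and 0.59 and 0.86 with stage, beside 0.01 and 0.03. ERFE, the erythroid hormone that suppresses hepcidin, went from 15.3 CPM in control cells before differentiation over 37.2 CPM in knockout cells to 56.7 and 148 CPM after it, with knockout effects of 1.29 ± 0.14 (adjusted p = 5.54e-06) and 1.38 ± 0.12 (adjusted p = 1.74e-07). BCL2L1, which encodes the survival protein BCL-XL, was at 10.3 and 13.6 CPM before and 11.4 and 25.9 CPM after, and rose with knockout after differentiation by 1.18 ± 0.16 (adjusted p = 1.88e-05). CCND2, a D-type cyclin, rose with stage by 0.89 ± 0.07 in control cells (adjusted p = 4.58e-08) and with knockout by 0.32 ± 0.07 before (adjusted p = 0.0047) and 0.35 ± 0.07 after (adjusted p = 0.00106), the last lost under library sizes alone (0.19, adjusted p = 0.0699). PIM1, a survival kinase, rose with stage by 0.70 ± 0.07 in control cells (adjusted p = 3.69e-07). Its knockout effect after differentiation, 0.34 ± 0.07 (adjusted p = 0.000987), was also lost under library sizes alone (0.18, adjusted p = 0.0624). TFRC is in this list and among the erythroblast markers above. CISH and SOCS2 are among the 10 genes and so not in this list. With knockout CISH was called higher at both stages and SOCS2 lower at both. SOCS1 and SOCS3 were placed in the feedback list. The counts thus depend on how the list was drawn up, with earlier results of these data known.

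Of 33 feedback and receptor turnover genes, 27 were tested, with 1 higher and 6 lower in knockout cells before differentiation and 2 higher and 9 lower after it. Called either way were 17.2% of all genes before and 33.1% after. The median log2 changes of the list were -0.10 and -0.06. PTPN6, the phosphatase SHP-1 that acts on EPOR and KIT, was at 25.8 and 20.6 CPM in control and knockout cells before differentiation and at 9.06 and 3.46 CPM after. It fell by 1.51 ± 0.12 with stage in control cells (adjusted p = 3.44e-08) and by 1.38 ± 0.16 with knockout after differentiation (adjusted p = 4.69e-06). SH2B3, the adaptor LNK that restrains JAK2, rose by 0.83 ± 0.09 with stage in control cells (adjusted p = 9.38e-07) and by 0.63 ± 0.09 with knockout after differentiation (adjusted p = 1.97e-05). SOCS3 rose with stage in control cells from 0.334 to 2.51 CPM (2.86 ± 0.40, adjusted p = 1.88e-05) and SOCS1 from 2.18 to 5.45 CPM (1.31 ± 0.22, adjusted p = 0.000137), both without a knockout call at either stage. SOCS6 and PTPN2, which fell with knockout at both stages, lie on chromosome 18. On that chromosome 149 of 265 tested genes were lower and 5 higher in knockout cells before differentiation, and 115 lower and 13 higher after it. The median log2 change of its genes was -0.48 before and -0.38 after, beside -0.001 and -0.003 on the other chromosomes. The origin of this shift was not tested. MBD2 lies on chromosome 18 as well, while none of the 10 genes does.

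In the insulin and PI3K list, 25 of 29 were tested, with 4 higher and 2 lower in knockout cells at either stage, and with 8 higher and 4 lower by stage in control cells. Of all genes, 17.2% and 33.1% were called with knockout before and after differentiation and 43.8% by stage in control cells. The medians were 0.06 and -0.03 with knockout and 0.05 with stage. IRS2, the adaptor of the insulin receptor, rose with knockout after differentiation from 6.09 to 15.6 CPM (1.36 ± 0.14, adjusted p = 9.61e-07) and with stage in control cells from 2.42 CPM (1.32 ± 0.17, adjusted p = 1.04e-05). IRS1 stood between 2.94 and 4.14 CPM in the group means with no call. FOXO3, a transcription factor that AKT inhibits, rose with knockout after differentiation from 129 to 447 CPM (1.79 ± 0.08, adjusted p = 2.98e-11), a value that reads of its close pseudogene copy could touch. INPP5D, the lipid phosphatase SHIP1, fell by 0.46 ± 0.11 with stage in control cells (adjusted p = 0.0023). GRB10, an adaptor that inhibits the insulin receptor and binds KIT, rose by 1.08 ± 0.09 with stage in control cells (adjusted p = 3.79e-08).

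In the list of RAS-MAPK genes, adaptors and SRC family kinases, 27 of 29 were tested, with 2 higher and 4 lower in knockout cells before differentiation and 5 higher and 8 lower after it, beside 17.2% and 33.1% of all genes called, and medians of 0.01 and -0.01. LYN, a SRC family kinase that acts behind KIT and EPOR, was at 162 and 143 CPM before differentiation and at 102 and 53.5 CPM after it in control and knockout cells. It fell by 0.66 ± 0.07 with stage in control cells (adjusted p = 1.09e-06) and by 0.94 ± 0.08 with knockout after differentiation (adjusted p = 5.19e-08). NF1, a brake on RAS, fell with knockout after differentiation by 1.14 ± 0.08 (adjusted p = 5.06e-09), and VAV1, an exchange factor of blood cells, by 2.28 ± 0.22 (adjusted p = 3.83e-07). GAB1, a docking adaptor of EPOR signaling, rose by 1.06 ± 0.08 with stage in control cells (adjusted p = 2.86e-08), and GAB2 by 0.81 ± 0.11 (adjusted p = 2.19e-05). After differentiation GAB2 was lower in knockout cells by 0.51 on the log2 scale (adjusted p = 0.0023).

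**Figure D5:**
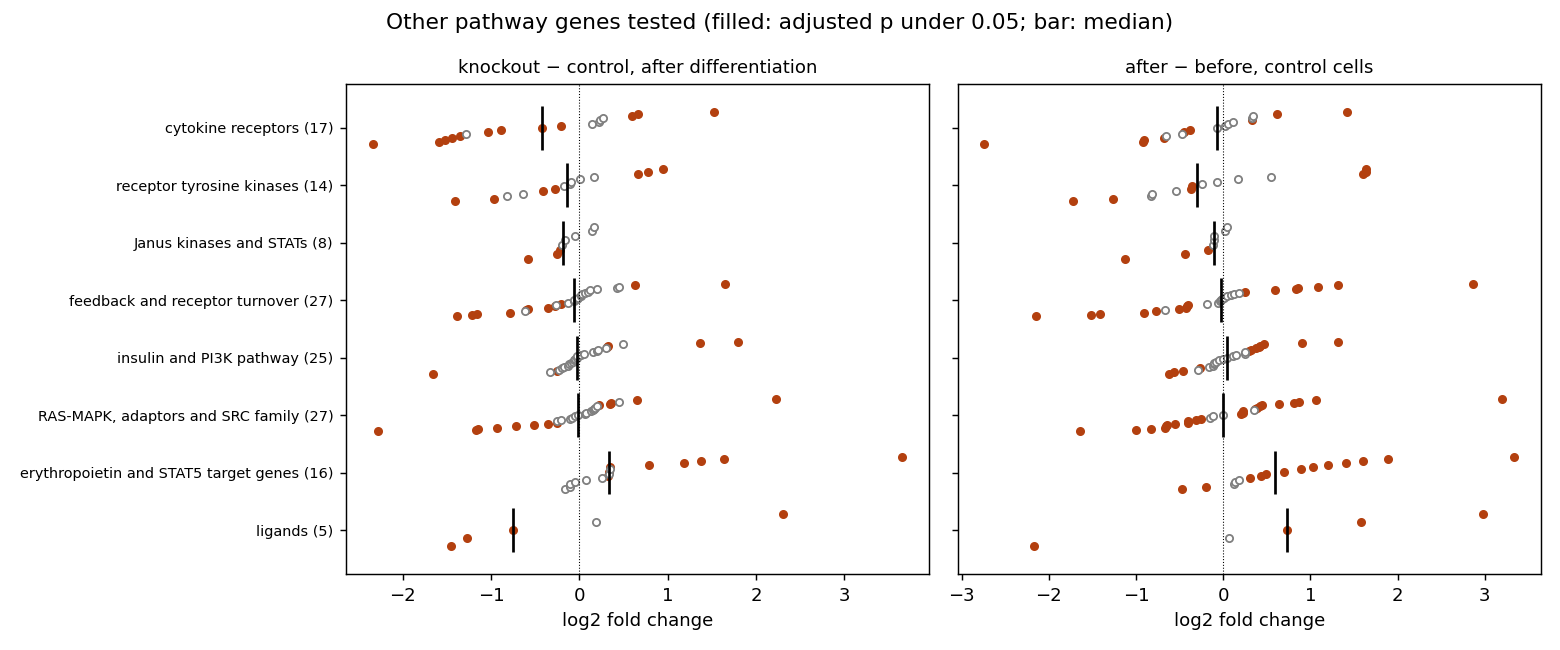
Log2 change between knockout and control cells after differentiation and log2 change with stage in control cells for the tested genes of the pathway lists, 1 point per gene, filled where called, grouped by list with a bar at the list median. Of the EPO and STAT5 targets, 8 of 16 were called higher with knockout and none lower, while of the cytokine receptors 9 of 17 were called lower and 3 higher.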

How the data were processed

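Total RNA, depleted of ribosomal and globin RNA with a stranded kit per the labels' protocols, was sequenced in 12 libraries. The deposited table holds raw counts per gene, made by the authors with featureCounts 1.4.6-p4 over exons of GENCODE release 22 (hg38) and no strand option, per the file headers. The submitters' processing notes name Trimmomatic, FastQC, Subread 1.6.2, featureCounts 1.2.6 and edgeR 3.18.1. Symbols were joined by gene identifier and named 56753 of 60483 genes.

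Tests on the counts used edgeR 4.0.16 (R 4.3.3, filterByExpr by group, TMM scaling, a group-means model over all 12 libraries, two-sided quasi-likelihood F-test, Benjamini-Hochberg adjustment over 17175 genes). The standard error is the log2 change divided by the square root of F. The common biological coefficient of variation was 0.0890. Exact permutation of 3 against 3 libraries cannot go below p = 0.1. CPM used TMM-scaled library sizes, and FPKM divided CPM by the exon length in the deposited table. Scripts were tested on simulated data. Alternatives were RLE factors, library sizes alone, no count filter, only the groups compared, a replicate block, DESeq2 1.42.0 and leaving out each library.

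The 10 genes and all lists were chosen with earlier results of these data known. Named beside the 10 were MBD2, 21 direct partners, up to 3 called genes per list and comparison with the smallest adjusted p and no overlap, and the 3 genes closest in pattern to EPOR and KIT. Promoter sequences came from RefSeq (GRCh38.p14). Protein sequences were not used here, and 1 listed erythroblast marker is not reported here.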

Additional observations from a re-analysis of the deposited data

Results flagged for a closer look

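For 28 results, 5 of them on the 10 receptor signaling genes, the knockout effect differed between the stages by a test of the difference itself in edgeR. Values are the log2 knockout effect after minus that before differentiation. Among the 10 genes this was -0.50 for KIT, -1.73 for CSF2RB and -2.54 for RHEX, and 0.69 for INSR and 0.56 for JAK2. For CSF2RB, RHEX, INSR and JAK2 the effect was called at both stages in 1 direction, and for KIT only after differentiation.

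Among receptors and their ligands the difference was 1.05 for the shared IL-6 family chain IL6ST, 0.39 for IGF2R, -1.24 for IL4R, -1.03 for the interferon receptor chain IFNAR2, -1.46 for FGFR3, -0.98 for EPHB6, 1.00 for GDF15 and -1.43 for CSF1. FGFR3 stood at 2.23 CPM or less in every group, and CSF1 at 3.08 CPM or less. Among proximal signaling genes it was -0.46 for STAT5A (adjusted p = 0.0103), -0.76 for LYN, -1.37 for PLCG2, -0.92 for NF1, -0.58 for GAB2, -1.06 for PTPN6 and 0.45 for SH2B3. In the insulin and PI3K list it was 0.77 for IRS2, 0.40 for PIK3CA, -1.50 for PIK3CG and 1.41 for FOXO3. Among EPO and STAT5 targets it was 0.77 for BCL2L1, 1.11 for CCND3, 0.34 for MCL1 and 0.65 for TFRC. These are the genes the naming rule reaches, not all that were called. In this contrast the cytokine receptor list held 1 gene more positive and 6 more negative, the RAS-MAPK and adaptor list 3 and 7 (GAB1 among the 3, at 0.45), the receptor tyrosine kinase list 1 and 4, the insulin and PI3K list 3 and 1 and the EPO and STAT5 targets 4 and 0, beside 6.28% and 6.68% of all genes. PIK3CA had no call at either stage alone.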

How the results depend on the processing

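The numbers of genes called stayed within 1.5 times the main count in every comparison and alternative, and so did the numbers of the 10 genes called (7 to 9 for knockout against control before differentiation, 8 after, 10 for stage in control cells, 9 to 10 in knockout cells and 5 to 7 for the difference between knockout effects). The fit with only the groups compared was not run for that difference. Values on the other side of 0 under an alternative all belonged to results without a call, and the cause was not tested. IGF1R after differentiation ranged from -0.0427 to 0.0571 when single libraries were left out, the positive values coming from leaving out control replicate 1 (0.0571) and, among knockout libraries, replicate 2 (0.00511) or replicate 3 (0.00436). The difference between knockout effects gave -0.0691 for IGF1R and -0.0905 for SOCS2 with library sizes alone. When single libraries were left out it ranged from -0.00667 to 0.112 for SOCS2, the lowest without knockout replicate 2 before differentiation, and from -0.0523 to 0.591 for FLT3, the lowest without knockout replicate 3 after it. Beyond the losses given with EPOR, its call before differentiation was also lost with library sizes alone (0.48, adjusted p = 0.0600) and with only the groups compared (0.51, adjusted p = 0.0827), and its difference between effects was called without a count filter (0.47, adjusted p = 0.0253). Replicate numbers were shared across groups. Deviations of same-numbered libraries of knockout and control correlated at 0.241, 0.094 and 0.0691 before differentiation and at 0.021, 0.15 and 0.0745 after it. Between stages they correlated at 0.0149, 0.169 and 0.209 in control cells and at 0.107, -0.0177 and -0.0179 in knockout cells. Libraries with different numbers ranged from -0.227 to 0.182. These values do not settle whether the numbers pair samples, and the main fit did not pair them. The replicate block called 3491 genes before and 6137 after differentiation between genotypes, 8030 and 9992 by stage in control and knockout cells and 2728 for the difference, against 2958, 5687, 7529, 9563 and 2227 without it. DESeq2 called 2498, 4959, 6551, 8704 and 2091. Among other genes named, the difference between effects was lost in several alternatives for IRS2 (12), BCL2L1 (8), CSF1 (8), GAB2 (7), PIK3CA (4), SH2B3 (3), MCL1 (2) and GAB1 (2). It was lost in 1 alternative each for IGF2R, EPHB6, FGFR3 and GDF15. With library sizes alone SH2B3 gave 0.32 (adjusted p = 0.126) and IGF2R 0.26 (adjusted p = 0.139). Of 40 counts of list members called, 13 moved by over 1.5 times in at least 1 alternative. Between genotypes before differentiation the insulin and PI3K count of 6 ranged from 1 to 7, the RAS-MAPK count of 6 from 2 to 7, the receptor tyrosine kinase count of 6 from 3 to 7 and the Janus kinase and STAT count of 2 from 1 to 2. After differentiation the feedback count of 11 ranged from 7 to 14, the receptor tyrosine kinase count of 7 from 3 to 7 and the Janus kinase and STAT count of 3 from 2 to 6. The other 6 belonged to the difference between effects, with main counts from 1 to 10. Depth limited FLT3 after differentiation, with 2 to 6 counts a library.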

Other observations

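The cells' own mRNA for the ligands of these receptors was scarce. Of 19 ligand genes 5 passed the count filter, and the genes for EPO (8 counts over all libraries), stem cell factor (KITLG, 8 counts) and insulin (INS, 0 counts) did not. LIF, a ligand of the IL-6 family, fell with differentiation in control cells from 19.4 ± 0.42 to 4.28 ± 0.36 CPM (SD, n = 3, log2 -2.17 ± 0.15, edgeR adjusted p = 4.98e-09) and was lower in knockout cells by 1.11 on the log2 scale before (adjusted p = 1.30e-05) and 1.27 after it (adjusted p = 0.00025). GDF15, a stress-induced cytokine that erythroblasts release, rose with differentiation from 4.39 to 34.1 CPM in control cells (2.98 ± 0.18, adjusted p = 1.00e-09) and from 10.7 to 169 CPM in knockout cells (3.97 ± 0.15, adjusted p = 1.81e-12). VEGFA, the vascular growth factor, rose from 79.4 to 236 CPM in control cells (1.58 ± 0.12, adjusted p = 1.30e-08), and stood at 269 CPM in knockout cells after differentiation.

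Among receptors outside the 10 genes, AXL, a receptor tyrosine kinase for GAS6, fell with differentiation from 17.9 to 5.45 CPM in control cells (-1.73 ± 0.15, adjusted p = 7.13e-08). STAT6, the transducer of IL-4 signals, fell from 75.8 to 34.8 CPM (-1.13 ± 0.09, adjusted p = 4.01e-08), and IL4R, its receptor chain, from 16.4 to 10.2 CPM (-0.68 ± 0.14, adjusted p = 0.000855).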
